A study of Oryza sativa Japonica Group with 27 samples.

Results

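The genes described here are 9 rice loci of the jasmonate pathway: 5 loci listed for jasmonate synthesis (AOS1, AOS2, AOC, OPR7 and OPR1) and 4 listed as JAZ repressors (JAZ9, JAZ11, JAZ12 and JAZ8). They were picked by locus identifier, with earlier results of these data known, and are 9 of the 35679 loci in the deposited tables, with 11 of the 42132 transcripts. Their names come with that choice, because the tables give identifiers without gene names. Jasmonate is a hormone that plants make from chloroplast lipids after wounding or insect attack. Allene oxide synthase and allene oxide cyclase carry out early steps in the chloroplast, and a reductase in the peroxisome continues the path. JAZ proteins repress the response genes until the active hormone conjugate joins them to the receptor COI1 and they are degraded, and many JAZ genes are themselves induced by wounding and jasmonate.

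The libraries are Structure-seq2 libraries, made from poly(A)-selected RNA of whole shoots of 14-day-old japonica rice, cultivar Nipponbare. In Structure-seq2, dimethyl sulfate (DMS) enters living tissue and methylates unpaired adenine and cytosine, and reverse transcription stops at the methylated base. The question put to the 9 loci was whether genes of wounding and jasmonate rise in DMS-treated shoots in either of 2 protocols. The tables give counts per transcript for 14 libraries read with a standard sequencing primer, 13 of which were also read with a custom primer.

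The biotin variation, which adds biotin and captures cDNA on streptavidin, had 2 libraries with DMS and 2 without. There were 6 further kinds with a single untreated library, in which a named step of the standard protocol was changed. These were biotin only, Ex Taq as the PCR enzyme, Circligase as the ligase, a lower denaturation temperature before reverse transcription (65 °C without salt), a lower reverse transcription temperature (50 °C), and final purification on agarose. The standard protocol (90 °C with salt, 55 °C, T4 DNA ligase, Q5 polymerase and polyacrylamide gels) had 2 libraries with DMS and 2 without. Nothing in the labels says that replicates came from separate plants. A p-value therefore measures only how these libraries differ, and that spread may be technical.

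Total counts per library lay between 29777 and 410068 for the standard primer and between 27118 and 468337 for the custom primer. Values are given as counts, or as CPM (counts scaled to library size with TMM factors), and 1 count was worth 2.41 to 20.03 CPM in the standard-primer readings. The shallowest library was replicate 1 of the biotin variation without DMS. The 6 loci listed as shoot markers were found in every library, at a sum of at least 3106 counts with the standard primer. With that primer the sum ran from 46379 to 90986 CPM with DMS and from 45075 to 88693 CPM without it. In the standard protocol 2 of these 6 loci were lower with DMS, with log2 changes of -3.64 and -3.45 (adjusted p = 0.00658 and 0.0168, edgeR's quasi-likelihood test), against 0.0905% of all loci called lower. Both were also low in the biotin variation without DMS. There they had 601 and 2204 CPM, and 280 and 1134 CPM. The untreated libraries of the standard protocol had 20372 and 16991 CPM, and 4885 and 4898 CPM. Of the 3 loci listed as root markers, 1 had no count in any library, and their sum ran from 188 to 455 CPM with DMS and from 60.1 to 453 CPM without. The part of tissue makeup in the results below was not tested.

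The jasmonate loci were rare in every library. All 9 together had 728 counts in the 14 standard-primer readings, 0.0263% of all counts, and 1041 in the 13 custom-primer readings, 0.0346%. OPR7 had the most in both readings, with 165 and 249 counts. AOS2, with 22 and 30 counts, and AOC, with 25 and 31, had the fewest. Gene lengths were not used here, so counts and CPM are compared between libraries and not between genes. AOS2 and AOC are each listed with 2 transcripts whose counts were equal in 14 and in 13 of 14 standard-primer readings, so their sums may hold the same reads more than once.

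No locus of the 9 passed the test for DMS in either protocol (edgeR's quasi-likelihood test, Benjamini-Hochberg adjustment over all loci tested, threshold 0.05). With the standard primer 6 of the 9 had enough counts to be tested (at least 10 in at least 2 libraries), namely AOS1, OPR7, OPR1, JAZ9, JAZ11 and JAZ12. The test called 0 of these 6 in the biotin variation, where it called 0.136% of 6628 loci, and 0 of 6 in the standard protocol, where it called 0.0905%. At an unadjusted p under 0.05 the count was also 0 of 6 in each protocol, against 18.4% of all loci for the biotin variation and 5.49% for the standard protocol. DESeq2 called 0 of 6 in each, against 1.25% of all loci for the biotin variation and 0.634% for the standard protocol. The difference of the DMS effect between the protocols was called for 0 of 6, against 0.0604% of all loci. With the custom primer JAZ8 was also tested, and 0 loci were called in the biotin variation (0.669% of 7777 loci) and 0 of 7 in the standard protocol (0.694%). The difference between protocols was called for 0 loci there too (0.219%). At an unadjusted p under 0.05 (edgeR) the custom primer gave 2 of 7 members, JAZ9 and JAZ11, in the standard protocol, against 642 of 7777 loci. In the biotin variation it gave 0 of 6, against 1884 of 7777 loci.

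**Figure D1:**
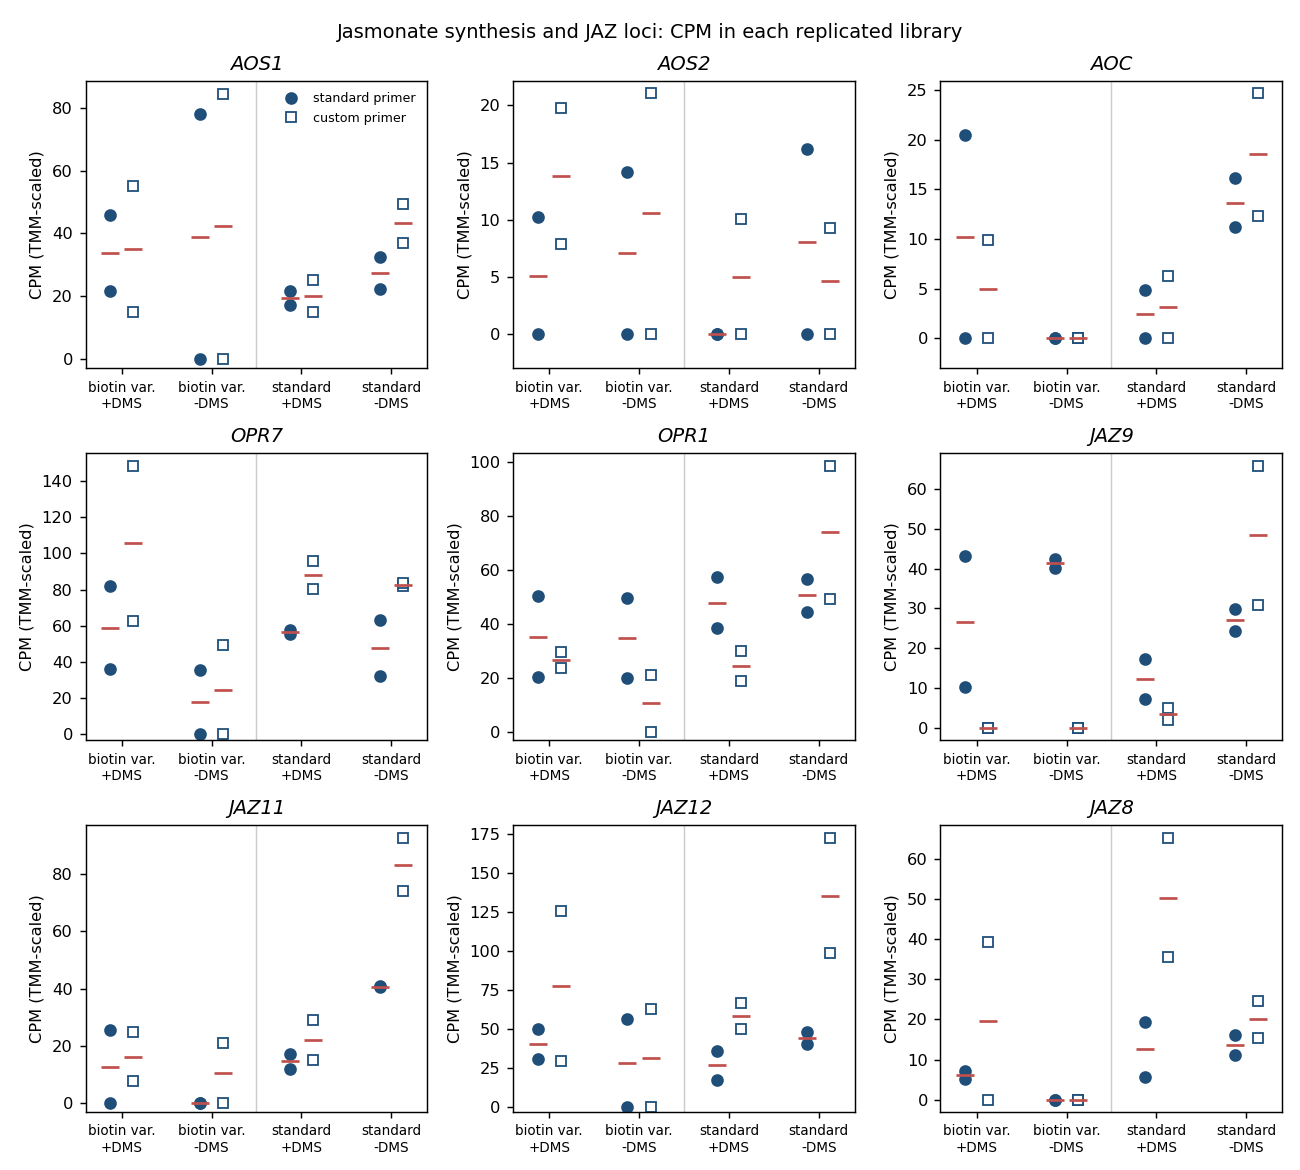
Level of each locus in the 8 replicated libraries (y axis, TMM-scaled CPM, each panel with its own scale), by protocol and DMS (x axis). Filled circles are standard-primer readings, open squares custom-primer readings and red bars the mean of 2 libraries. AOS1, AOC, JAZ9, JAZ11 and JAZ12 lie lower with DMS in the standard protocol in both readings. So do 23.7% of all loci tested with the standard primer and 27.5% with the custom primer. OPR7 lies higher with DMS in both readings of the biotin variation, as do 37.4% and 40.8% of all loci tested, in that order.

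The members' log2 changes had mixed signs in the biotin variation and were mostly below 0 in the standard protocol, without passing the test. In the standard protocol 5 of the 6 tested with the standard primer had a log2 change below 0, with a median of -0.53, against 0.02 over all loci tested. Read with the custom primer, 5 of 7 were below 0, with a median of -1.12, against -0.01 over all loci. In the biotin variation 3 of 6 were above 0 with the standard primer, with a median of -0.04, or -0.13 with JAZ11 set at its bound, against 0.62 over all loci. With the custom primer 5 were above 0 and 1 below it, with a median of 0.75, or 0.46 with JAZ8 set at its bound, against 0.84 over all loci. JAZ11 with the standard primer and JAZ8 with the custom primer are counted above 0 there. Neither had a count without DMS, so their signs rest on the model. The median of all loci in the biotin variation depended on scaling, at 0.62 with TMM factors, 0.33 with RLE factors and 0.18 with bare library totals. Levels come from whole shoots, where fewer cells of a type and less RNA per cell cannot be told apart. DMS also marks the RNA that is read, so a changed transcript level and a changed recovery of reads cannot be told apart either.

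AOS1 (OS03T0767000), an allene oxide synthase, had 9 and 3 counts (46.0 and 21.6 CPM) with DMS in the biotin variation, against 0 and 11 counts (0 and 77.9 CPM) without it. The standard protocol gave 3 and 9 counts of AOS1 (17.2 and 21.7 CPM) with DMS, against 4 and 6 counts (32.3 and 22.3 CPM) without it. Libraries of the biotin variation overlapped, and both DMS libraries of the standard protocol lay just under both without it, as for 23.7% of all loci. The log2 change of AOS1 was -0.50 (SE 1.04) for the biotin variation and -0.40 (SE 1.05) for the standard protocol. The custom-primer readings gave -0.81 (SE 0.97) and -0.96 (SE 0.87) for the same pair of comparisons.

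AOS2 (OS03T0225900), listed as a second allene oxide synthase, and AOC (OS03T0314500), the allene oxide cyclase, were too rare to be tested. AOS2 had 2 counts with DMS and 2 without it in the biotin variation, and 0 with DMS against 2 without it in the standard protocol. AOC had 4 counts with DMS and 0 without it in the biotin variation, where 0 counts allow up to 15.7 CPM over both libraries. AOC had 2 counts with DMS in the standard protocol (0 and 4.82 CPM) and 5 without it (16.2 and 11.2 CPM). Its pooled ratio there was 0.266, with an exact interval from counting alone of 0.0254 to 1.63. Intervals from counts leave out PCR duplication, since no molecular identifiers are recorded, and so cover counting error alone.

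OPR7 (OS08T0459600), listed as the OPDA reductase of jasmonate synthesis, lay higher with DMS in both readings of the biotin variation. With the standard primer it had 16 and 5 counts (81.7 and 36.0 CPM) with DMS, against 0 and 5 counts (0 and 35.4 CPM) without it. The custom primer gave 30 and 8 counts (148 and 62.9 CPM) with DMS, against 0 and 7 counts (0 and 49.2 CPM) without it. The groups did not overlap in either reading, though with the standard primer the lower DMS library lay within 1 count's worth of the higher library without it. Of all loci tested, 37.4% with the standard primer and 40.8% with the custom primer were also apart and higher with DMS there. The count of 0 came from the shallowest library, which holds 1 standard-primer count of OPR1, 2 of JAZ9 and no custom-primer count of any of the 9 loci. The pooled ratio was 2.40 (counting interval 0.879 to 8.13) with the standard primer, which takes in 1, and 3.11 (1.37 to 8.24) with the custom primer. The fitted log2 change was 1.31 (SE 1.04, adjusted p = 0.509, edgeR) with the standard primer, or 0.69 above the median of all loci. Without the shallowest library the log2 change was 0.76 (SE 0.84). With the custom primer it was 1.64 (95% interval -0.12 to 3.40, adjusted p = 0.234, edgeR), or 0.80 above the median of all loci.

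OPR7 differed by less than the spread between libraries in the standard protocol. It had 10 and 23 counts (57.5 and 55.4 CPM) with DMS, against 4 and 17 counts (32.3 and 63.2 CPM) without it. Custom-primer readings gave 80.3 and 95.8 CPM with DMS and 82.2 and 83.3 CPM without it. The libraries overlapped in both readings, and the log2 change was 0.17 (95% interval -1.61 to 1.96) with the standard primer and 0.10 (95% interval -1.23 to 1.43) with the custom primer. The difference of the DMS effect between the protocols was 1.14 on the log2 scale (SE 1.34, adjusted p = 0.756, edgeR) with the standard primer.

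OPR1 (OS06T0216300), listed as a related reductase, was the only member with a standard-primer count in all 4 libraries of the biotin variation besides JAZ9. It had 4 and 7 counts (20.4 and 50.3 CPM) with DMS there, against 1 and 7 counts (20.03 and 49.6 CPM) without it. The standard protocol gave 10 and 16 counts (57.5 and 38.5 CPM) with DMS, against 7 and 12 counts (56.6 and 44.6 CPM) without it. The groups overlapped in both protocols, with log2 changes of -0.19 (SE 0.96) for the biotin variation and -0.087 (SE 0.81) for the standard protocol. Custom-primer readings differed in both protocols. In the standard protocol they gave 6 and 9 counts (30.1 and 18.7 CPM) with DMS. Without it they gave 12 and 16 counts (98.6 and 49.4 CPM), so DMS libraries were lower, as for 27.5% of all loci. That log2 change of -1.56 had an unadjusted p of 0.0520 and an adjusted p of 0.613 (edgeR). For the biotin variation they gave 6 and 3 counts (29.6 and 23.6 CPM) with DMS. Without it they gave 0 and 3 counts (0 and 21.1 CPM), the 0 being the shallowest library. There DMS libraries were higher, as for 40.8% of all loci, with a log2 change of 0.80.

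**Figure D2:**
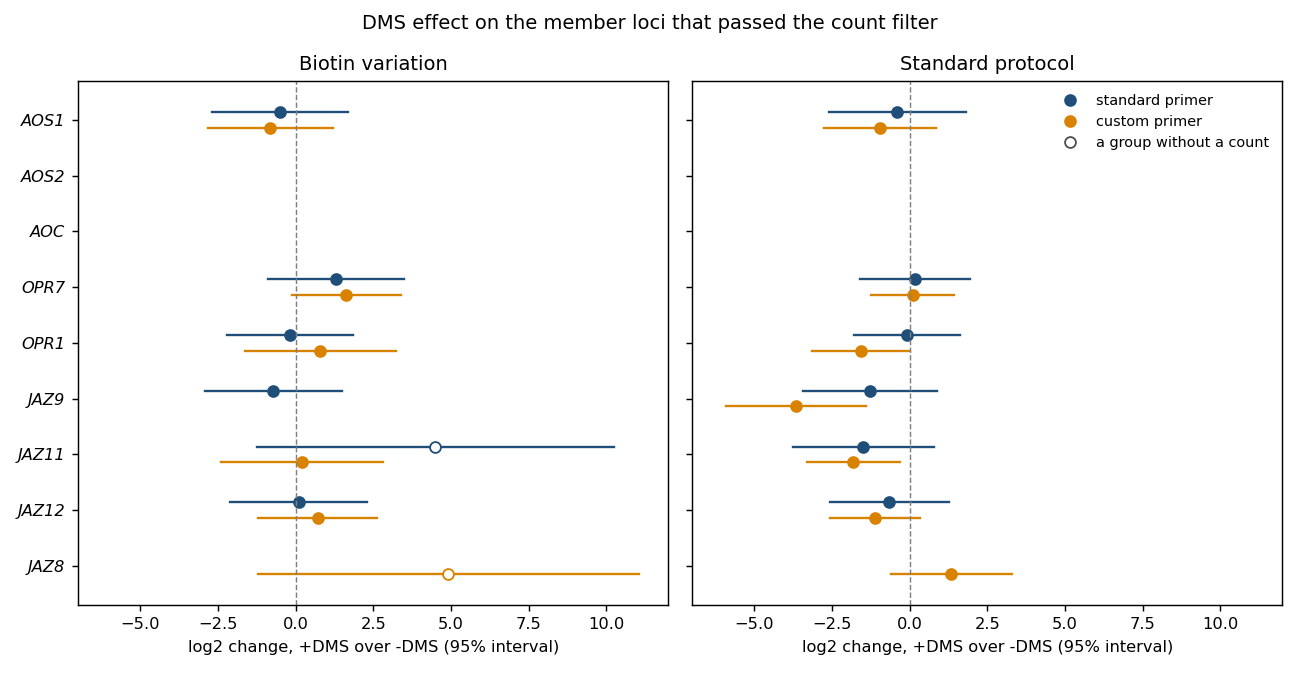
Fitted log2 change with DMS over without it (x axis) for the loci that were tested (y axis), in the biotin variation and the standard protocol, with the 95% interval of the model. Blue is the standard primer, orange the custom primer, and open points have a group without a count, so that their size depends on the model. Only JAZ9 and JAZ11 with the custom primer in the standard protocol have intervals that leave out 0, and neither passed the adjusted threshold.

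The 4 JAZ loci, summed, lay lower with DMS in the standard protocol and not in the biotin variation, a difference that was not tested for the sum. Together they had 10 and 31 counts (57.5 and 74.7 CPM) with DMS there, against 15 and 35 counts (121 and 130 CPM) without it. Their pooled ratio was 0.546 (counting interval 0.352 to 0.842), and 0.506 (0.380 to 0.671) in the custom-primer readings. For the biotin variation the 4 loci had 14 and 14 counts (71.5 and 101 CPM) with DMS, against 2 and 14 counts (40.1 and 99.2 CPM) without it. The pooled ratio there was 0.999 (counting interval 0.522 to 1.98), and 1.57 (0.792 to 3.35) with the custom primer. The 2 DMS libraries lay below both untreated ones in the standard protocol in both readings. Of single loci tested, 23.7% with the standard primer and 27.5% with the custom primer did so too. The groups overlapped in the biotin variation, where only 6.58% and 3.86% of single loci, in that order, were apart and lower.

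The 5 synthesis loci, summed, had a pooled ratio in the standard protocol of 0.853 (counting interval 0.595 to 1.23) from the standard-primer table and 0.684 (0.509 to 0.919) from the custom-primer table. Their ratio for the biotin variation was 1.10 (0.670 to 1.84) by the standard primer and 1.46 (0.910 to 2.43) by the custom primer. All 9 loci summed gave 0.710 (0.540 to 0.933) and 0.584 (0.478 to 0.715) for the standard protocol in the same pair of readings. For the biotin variation the 9 loci gave 1.06 (0.719 to 1.58) by the standard primer and 1.5 (1.02 to 2.25) by the custom primer. That custom-primer sum stood at 276 and 322 CPM with DMS, against 0 and 260 CPM without it, the 0 being the shallowest library. So the sum of the 9 lay higher with DMS in 1 reading of the biotin variation, and lower with DMS in both readings of the standard protocol. In that reading of the biotin variation the median log2 change was 0.84 over all loci tested. Over the members tested it was 0.75, or 0.46 with JAZ8 set at its bound. Whether the sum rose apart from other loci was not tested. In the standard protocol the median over all loci was 0.02 with the standard primer and -0.01 with the custom primer.

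JAZ9 (OS03T0180800), 1 of these repressors, had 1 and 1 custom-primer counts (5.02 and 2.08 CPM) with DMS in the standard protocol, against 8 and 10 counts (65.8 and 30.9 CPM) without it. The standard-primer reading of the same libraries held 3 and 3 counts (17.2 and 7.22 CPM) with DMS, against 3 and 8 counts (24.3 and 29.8 CPM) without it. DMS libraries were below the others in both readings, as for 27.5% of all loci with the custom primer and 23.7% with the standard primer. The log2 change was -3.65 with the custom primer (SE 1.08, 95% interval -5.90 to -1.40, unadjusted p = 0.00283, adjusted p = 0.161, edgeR) and -1.28 (SE 1.02) with the standard primer. In the biotin variation JAZ9 had 2 and 6 standard-primer counts (10.2 and 43.2 CPM) with DMS, against 2 and 6 counts (40.1 and 42.5 CPM) without it. The custom primer gave 0 counts of JAZ9 in all 4 libraries of that protocol, which allows up to 9.09 CPM over those with DMS and 15.9 CPM over those without. The standard primer found 16 counts in the same 4 libraries, so the readings of JAZ9 differ.

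JAZ11 (OS03T0180900) had 3 and 5 standard-primer counts (17.2 and 12.04 CPM) with DMS in the standard protocol, against 5 and 11 counts (40.4 and 40.9 CPM) without it. Custom-primer readings of the same libraries were 3 and 14 counts (15.1 and 29.2 CPM) with DMS, against 9 and 30 counts (74.0 and 92.6 CPM) without it. The groups were apart in both readings, with DMS lower, as for 23.7% of all loci with the standard primer and 27.5% with the custom primer. The log2 change was -1.49 (SE 1.06, adjusted p = 0.9998, edgeR) with the standard primer and -1.81 (SE 0.73, unadjusted p = 0.0204, adjusted p = 0.423, edgeR) with the custom primer. JAZ11 in the biotin variation had 5 and 0 standard-primer counts (25.5 and 0 CPM) with DMS, against none in either untreated library. The custom primer gave 5 and 1 counts (24.7 and 7.86 CPM) with DMS, against 0 and 3 counts (0 and 21.1 CPM) without it. Groups overlapped in both readings of the biotin variation. The pooled standard-primer level with DMS, 14.9 CPM, was under the 15.7 CPM that a count of 0 allows in the untreated pair, so no fold is given. JAZ genes form a family of related sequences, and how reads matching several members were counted is not known, which makes the separate values of JAZ9 and JAZ11 uncertain.

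JAZ12 (OS10T0392400) was the most counted of the 4 JAZ loci. In the biotin variation it had 6 and 7 standard-primer counts (30.6 and 50.3 CPM) with DMS, against 0 and 8 counts (0 and 56.7 CPM) without it. The standard protocol gave 3 and 15 counts (17.2 and 36.1 CPM) with DMS, against 5 and 13 counts (40.4 and 48.3 CPM) without it. Custom-primer readings of the standard protocol were 10 and 32 counts (50.2 and 66.7 CPM) with DMS, against 21 and 32 counts (173 and 98.8 CPM) without it. Libraries of the standard protocol were apart, with DMS lower, and those of the biotin variation overlapped. In the standard protocol 23.7% of all loci with the standard primer and 27.5% with the custom primer were apart in that direction. The log2 change of JAZ12 was 0.10 (SE 1.04) for the biotin variation and -0.66 (SE 0.90) for the standard protocol. With the custom primer it was 0.71 for the biotin variation, against a median of 0.84 over all loci, and -1.12 for the standard protocol. The custom-primer pooled ratio in the biotin variation was 1.40 (counting interval 0.619 to 3.45). The standard-primer value there took the other sign under RLE factors, at -0.15, and under bare library totals, at -0.30. Relative to the median of all loci that value was -0.51 with TMM factors.

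JAZ8 (OS09T0439200) stood higher with DMS in the custom-primer readings of the standard protocol, where the other 3 JAZ loci stood lower. There were 13 and 17 custom-primer counts (65.2 and 35.4 CPM) with DMS in the standard protocol, against 3 and 5 counts (24.7 and 15.4 CPM) without it. Both DMS libraries lay above both others, as for 27% of all loci, with a pooled ratio of 2.46 (counting interval 1.10 to 6.21). The fitted log2 change was 1.34 (SE 0.94, 95% interval -0.60 to 3.29, adjusted p = 0.847, edgeR). The standard primer gave 1 and 8 counts (5.75 and 19.3 CPM) with DMS, against 2 and 3 counts (16.2 and 11.2 CPM) without it, and there the groups overlapped. In the biotin variation JAZ8 had 0 and 5 custom-primer counts (0 and 39.3 CPM) with DMS, against none in either untreated library.

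Libraries that do not overlap are common at this depth, and the members' counts are read against that share. With the standard primer 1 of 6 members (OPR7) lay higher in both DMS libraries of the biotin variation, against 37.4% of all loci tested, and 0 of 6 lay lower, against 6.58%. In the standard protocol 0 of 6 lay higher, against 26.2%, and 4 of 6 (AOS1, JAZ9, JAZ11 and JAZ12) lay lower, against 23.7%. With the custom primer OPR7 and OPR1 lay higher in the biotin variation, 2 of 7 against 40.8% of loci, and 0 of 7 lay lower, against 3.86%. In the standard protocol JAZ8 lay higher, 1 of 7 against 27%, and 5 of 7 (AOS1, OPR1, JAZ9, JAZ11 and JAZ12) lay lower, against 27.5%. The custom-primer readings are of the same libraries and are no further replicates. Whether the members' shares differ from these was not tested.

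Over both protocols together, with protocol as a term and 4 libraries on each side, OPR7, OPR1 and JAZ12 had enough counts for the test. DMS gave log2 changes of 0.57 (SE 0.70) for OPR7, -0.23 (SE 0.66) for OPR1 and -0.40 (SE 0.73) for JAZ12. None of the 3 was called (adjusted p from 0.860 to 0.959, edgeR), against 0.127% of 5530 loci. At an unadjusted p under 0.05 the count was 0 of 3 against 10.1% of loci, and with DESeq2 0 of 3 against 2.3%. The custom-primer readings called 0 of the 6 members tested, against 1.17% of 6514 loci. The biotin variation over the standard protocol gave -0.28 (SE 0.70) for OPR7, -0.29 (SE 0.67) for OPR1 and 0.23 (SE 0.73) for JAZ12. None of the 3 was called there either (adjusted p from 0.824 to 0.872, edgeR), against 4.1% of all loci. At an unadjusted p under 0.05 it was 0 of 3 against 24.2% of loci, and with DESeq2 0 of 3 against 16.3%. The custom-primer readings called 0 of 6 members, against 11.7% of all loci, with 1 of the 6 (JAZ8) at an unadjusted p under 0.05, against 28.2% of all loci.

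**Figure D3:**
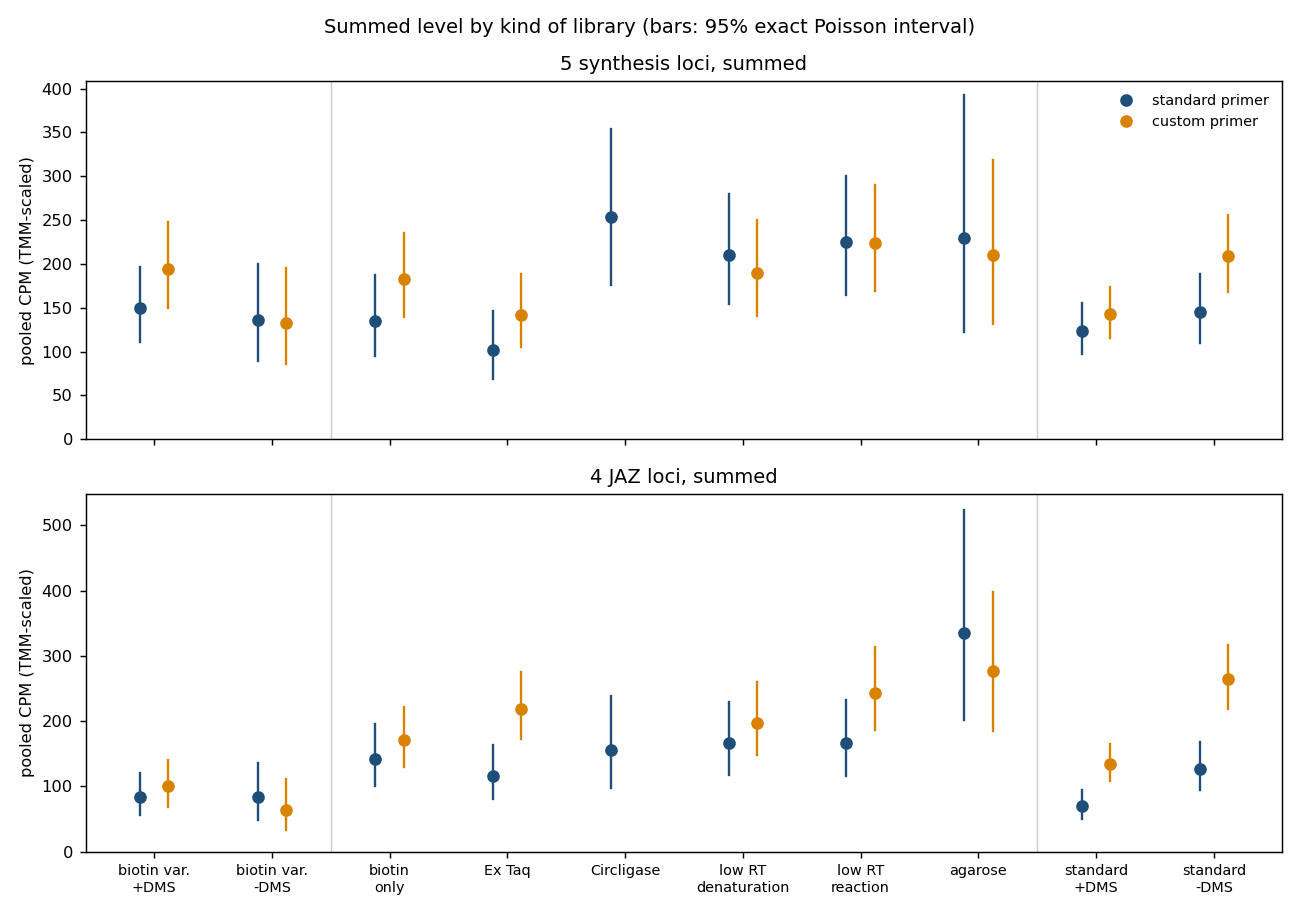
Pooled level of the 5 synthesis loci (upper panel) and the 4 JAZ loci (lower panel) in TMM-scaled CPM (y axis) for the 10 kinds of library (x axis), with exact 95% Poisson intervals. Blue is the standard primer and orange the custom primer, with which Circligase was not read. The JAZ loci of the standard protocol stand at 69.6 CPM with DMS and 127 CPM without it, and agarose purification has the highest JAZ level with the standard primer, 335 CPM, with the widest interval.

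Levels of the summed loci varied widely among untreated libraries of the different kinds. Over the 10 untreated libraries the 4 JAZ loci summed to a lowest value of 40.1 CPM, a median of 136 CPM and a highest of 335 CPM. The 4 libraries with DMS ran from 57.5 to 101 CPM. The lowest untreated value rests on 2 counts in the shallowest library, and without it the untreated JAZ sums begin at 99.2 CPM, with 3 of the 4 DMS libraries below them. Custom-primer sums without that library begin at 84.3 CPM, with 1 of the 4 DMS libraries below. The 5 synthesis loci summed to 20.03 CPM at the lowest, 165 CPM at the median and 253 CPM at the highest without DMS, and to between 108 and 179 CPM with it. That lowest synthesis value also came from the shallowest library, without which the lowest is 102 CPM and 0 of the 4 DMS libraries lie below it. The 6 kinds with a changed step have 1 library each and no replicate check. These untreated ranges mix the kinds of library, so DMS and protocol cannot be told apart in the counts of libraries below them. The share of all loci with DMS libraries below such a range was not computed.

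In order of pooled level, the JAZ loci with the standard primer stood at 335 CPM with agarose purification, 166 CPM with low reverse transcription temperature, 166 CPM with low denaturation temperature and 156 CPM with Circligase. Biotin only followed at 143 CPM, the standard protocol without DMS at 127 CPM, Ex Taq at 116 CPM, the biotin variation at 83.6 CPM with DMS and 83.7 CPM without, and the standard protocol with DMS at 69.6 CPM. Poisson intervals of neighbours in this order overlap throughout. For the synthesis loci the order was Circligase (253 CPM), agarose (230 CPM), low reverse transcription temperature (225 CPM), low denaturation temperature (211 CPM), then the biotin variation with DMS (149 CPM). The standard protocol without DMS (145 CPM), the biotin variation without DMS (136 CPM), biotin only (135 CPM), the standard protocol with DMS (124 CPM) and Ex Taq (102 CPM) came after. Here too the intervals of neighbours overlap.

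Single loci stood out in some of these libraries. OPR7 had its highest standard-primer value with Circligase, 24 counts or 179 CPM (95% Poisson interval 115 to 266 CPM), against 32.3 and 63.2 CPM in the standard protocol without DMS. AOC had its highest values at the lower reverse transcription temperature in both readings, with 8 standard-primer counts (39.1 CPM, interval 16.9 to 77.1 CPM) and 11 custom-primer counts (44.0 CPM). JAZ12 had its highest standard-primer value with agarose purification, 9 counts or 159 CPM (interval 72.7 to 302 CPM), where 1 count is worth 17.7 CPM, against 40.4 and 48.3 CPM in the standard protocol without DMS. In custom-primer readings agarose did not stand apart for JAZ12, at 172 CPM against 173 and 98.8 CPM.

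The custom primer found more of some loci than the standard primer in the same 13 libraries, and as many of others. JAZ8 had 78 custom-primer and 33 standard-primer counts, JAZ11 137 and 68, JAZ12 224 and 111, and OPR7 249 and 141. AOS1 had 86 and 75 counts, OPR1 119 and 114, and JAZ9 87 and 84. A count in 1 reading only was found in 4 libraries for JAZ9, each with 0 custom-primer counts, in 4 for AOS2, in 2 each for AOC and JAZ11 and in 1 each for OPR1 and JAZ8. In CPM over the 13 libraries JAZ8 stood at 26.6 with the custom primer and 12.98 with the standard primer, and JAZ9 at 29.7 and 33.0.

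Other loci of the pathway were taken from lists of identifiers, which neither the tables nor the reference pair with names, so they are given by identifier. Of 11 further identifiers listed as JAZ loci, 7 were tested with the standard primer, and 0 passed for DMS in either protocol or over both. Of 22 listed for jasmonate synthesis, conjugation, perception or MYC2, 12 were tested with 0 calls, and of 18 listed for wound and defence responses 10 were tested with 0 calls in each protocol (edgeR's quasi-likelihood test). At an unadjusted p under 0.05 there were 2 of 7, 3 of 12 and 1 of 10 in the biotin variation, against 18.4% of all loci, and 2 of 7, 2 of 12 and 3 of 10 in the standard protocol, against 5.49%. With the custom primer 0 were called in the biotin variation, and 3 of 7, 6 of 14 and 5 of 11 were under that p, against 1884 of 7777 loci. The standard protocol had 2 of 7, 3 of 14 and 4 of 11 under it with that primer, against 642 of 7777 loci. These counts are not split by direction. With the standard primer the median log2 changes in the biotin variation were 0.18, 0.58 and 0.35 for these 3 lists, against 0.62 over all loci. The custom primer gave 0.756, 1.298 and 0.229, against 0.835, with only the second list above. The sum of both readings gave 0.647, 0.765 and 1.148, against 0.775, with only the third list above. Whether a list differed from all loci was not tested. In the standard protocol the medians were -0.31, -0.60 and -0.92 with the standard primer, against 0.02 over all loci. With the custom primer they were -0.38, -0.49 and -0.73, against -0.01.

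With the custom primer 2 of the 7 further JAZ identifiers tested fell with DMS over both protocols, against 0.691% of 6514 loci called lower. OS03T0181100 had 256.6 and 181 CPM with DMS in the biotin variation, against 775 and 738 CPM without it, and 612 and 231 CPM with DMS in the standard protocol, against 1924 and 1256 CPM without it. Every DMS library was below both untreated libraries of its protocol, with a log2 change of -1.95 (SE 0.39, adjusted p = 0.000947, edgeR). OS10T0391400 had 0 counts with DMS in the biotin variation, against 43.0 and 105 CPM without it, and 60.2 and 18.7 CPM with DMS in the standard protocol, against 312 and 160.5 CPM without it. Its log2 change was -3.25 (SE 0.69, adjusted p = 0.00257, edgeR). The standard-primer readings gave -1.78 (adjusted p = 0.0730, edgeR) for OS03T0181100 and -2.47 (adjusted p = 0.247, edgeR) for OS10T0391400, neither past the threshold. No further JAZ identifier was called higher.

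Of the wound and defence list, 1 identifier was lower with DMS over both protocols with the custom primer (log2 change -1.86, adjusted p = 0.0393, edgeR), 1 of 10 tested against 0.691% of loci called lower. It was also lower in the standard protocol alone (-2.78, adjusted p = 0.0104, edgeR), 1 of 11 tested against 0.643%, and 0 were higher in either comparison. Its custom-primer values there were 146 and 127 CPM with DMS, against 888 and 979 CPM without it. In the biotin variation they were 49.3 and 94.3 CPM with DMS, against 64.6 and 91.4 CPM without it, and the groups overlapped. OS02T0110200, of the same list, stood higher under the biotin variation than under the standard protocol. It had 2022 and 1669 CPM in the biotin variation with DMS and 601 and 1077 CPM without it, and 489 and 530 CPM in the standard protocol with DMS and 340 and 260 CPM without it, all with the standard primer. Its log2 change between protocols was 1.83 (SE 0.32, adjusted p = 0.0183, edgeR), and 1.65 (adjusted p = 0.00431, edgeR) with the custom primer. It was 1 of 9 of the list called higher between protocols with the standard primer, against 2.08% of all loci, and 1 of 10 with the custom primer, against 3.22%. Custom-primer readings also called 1 of 10 of the same list, and 2 of 13 of the synthesis, conjugation and perception list, lower under the biotin variation, against 8.52% of all loci. Every DMS library of OS02T0110200 lay above both untreated libraries of its protocol, in both readings. Custom-primer values were 1288 and 1037 CPM with DMS against 194 and 710 CPM without it under the biotin variation. Under the standard protocol they were 271 and 394 CPM against 181 and 185 CPM. With that primer 40.8% and 27% of all loci, in that order, were also apart and higher with DMS. DMS over both protocols gave 0.79 (adjusted p = 0.385, edgeR) for OS02T0110200 with the standard primer, which did not pass.

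The loci most like OPR7 across the 14 standard-primer readings, by Pearson correlation of log2(CPM + 10) among 1567 loci with a mean of at least 20 counts, were OS12T0566700 (r = 0.92) and OS02T0792900 (r = 0.92). The median correlation of OPR7 with those loci was 0.51. All points share the libraries and their depths, and the values are a description only. OS12T0566700 had 169 and 79.1 CPM with DMS in the biotin variation against 0 and 42.5 CPM without it, and 194 CPM with Circligase.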

How the data were processed

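Structure-seq2 libraries of rice shoots were sequenced and counted by the authors. The deposited values are raw counts for each transcript, with a table per sequencing primer. Cutadapt and Bowtie2 are named in the submitters' processing notes; the sources used here do not give their versions, the build, the annotation or the handling of multiply matching reads. Transcript counts were summed per locus, and the standard-primer table was the main one. Loci with at least 10 counts in at least 2 libraries were tested with edgeR 4.0.16 in R 4.3.3 (quasi-likelihood, TMM factors, Benjamini-Hochberg adjustment, threshold 0.05). DMS within a protocol used a fit of 14 libraries with a mean per kind (4 residual degrees of freedom); DMS over both protocols, and protocol, used the 8 replicated libraries. Pooled counts have exact Poisson intervals and pooled ratios exact conditional binomial intervals (95%); a count of 0 allows 3 counts. Alternatives were RLE factors, library totals, no filter, DESeq2 1.42.0, the custom primer, the sum of both readings, single transcripts, a replicate block, the 8 libraries alone and leaving out each library. All 9 members are named. Of other listed loci, those past the threshold were to be named, but at most 2 in a direction are printed since the reference paired none of the 69 listed identifiers with a name. Members and lists were chosen with earlier results of these data known. The tables hold 0 columns of other samples. No sequence is shown, since no sequence table was used here.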

Additional observations from a re-analysis of the deposited data

How the results depend on the processing

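No member was called in any of the settings tried: of 370 values over 24 member results, 336 kept their direction and 34 took the other, 20 of these on leaving out a library. The reversals under other settings were, for DMS in the standard protocol, OPR1 with no filter (0.058), and for DMS in the biotin variation, OPR1 with the custom primer (0.80) and with the sum of both readings (0.17), and JAZ12 with RLE factors (-0.15), library totals (-0.30), DESeq2 (-0.011) and the 8 replicated libraries alone (-0.14). For the difference between protocols they were AOS1 with the custom primer (0.14) and the sum (0.20) and OPR1 with the custom primer (2.36) and the sum (0.999), and for the protocols themselves JAZ12 with no filter (-0.20), the custom primer (-0.50) and the sum (-0.41). The cause of these was not tested.

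Counts of called loci over the whole table were unsteady, and changed over 1.5-fold as follows. DMS in the standard protocol gave 6 calls (0 higher, 0%), and 13 with RLE factors, 15 with library totals (13.3% higher), 10 with no filter, 42 with DESeq2, 54 with the custom primer, 0 with the sum of both readings (508 at an unadjusted p under 0.05, edgeR) and 58 for single transcripts. DMS in the biotin variation gave 9 (22.2% higher), and 29 with RLE factors, 39 with library totals (7.69% higher), 92 with no filter (37.0% higher), 83 with DESeq2, 52 with the custom primer (84.6% higher, so mostly in the other direction), 0 with the sum (2685 at an unadjusted p under 0.05, edgeR) and 62 for single transcripts. The difference gave 4, and 9 with RLE factors, 6 with library totals, 21 with no filter, 14 with DESeq2, 17 with the custom primer, 0 with the sum (1834 at an unadjusted p under 0.05, edgeR), 16 for single transcripts and 1 with the 8 libraries alone. DMS over both protocols gave 7 (42.9% higher; 16.7% of 6 with library totals), and 19 with no filter, 127 with DESeq2, 76 with the custom primer and 34 for single transcripts. Protocol gave 227 (50.7% higher; 30.2% with RLE factors and 36.7% with library totals), and 604 with no filter, 901 with DESeq2, 765 with the custom primer, 430 with the sum and 584 for single transcripts. The pooled level of the 9 loci was 294 CPM with the custom primer, against 233 CPM with the standard primer, in the biotin variation with DMS, 196 against 220 CPM there without DMS, 277 against 193 CPM in the standard protocol with DMS, and 474 against 273 CPM in the standard protocol without DMS.

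Replicate numbers are only shared between groups: correlations of the deviations of same-numbered libraries ran from -0.067 to 0.16. With the replicate number as a block, DMS in the standard protocol gave 6 calls, DMS in the biotin variation 6, the difference 1, DMS over both 5 and protocol 36, with no member called.

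Leaving out 1 library gave 0 to 104 calls for DMS in the standard protocol, 0 to 592 in the biotin variation, 0 to 321 for the difference, 0 to 71 for DMS over both and 6 to 501 for protocol, and 0 to 0 members in each. The highest counts came without a library of the biotin variation without DMS: without replicate 2 there were 104, 592 (83.6% higher) and 321 calls for the first 3 comparisons, and without replicate 1 there were 101, 2 and 6, with 501 for protocol. Without either library of the biotin variation with DMS there were 0 calls in each of these 3 and for DMS over both. The 71 for DMS over both came without replicate 2 of the standard protocol with DMS. Protocol gave 6 calls without replicate 1 of the standard protocol without DMS, or without replicate 2 of the biotin variation with DMS, and 15, 16, 15 and 23 without replicate 2 of the standard protocol without DMS, its replicate 1 or 2 with DMS, and replicate 2 of the biotin variation without DMS. Member values that took the other sign in some of these fits ranged, for DMS in the standard protocol, from -0.15 to 0.80 for OPR7 and -0.25 to 0.20 for OPR1, and for DMS in the biotin variation from -0.97 to 0.73 for OPR1, -2.01 to 0.0056 for JAZ9 and -0.51 to 6.04 for JAZ12. Without a change of sign, DMS in the standard protocol ranged from -0.67 to -0.15 for AOS1, -1.72 to -0.65 for JAZ9, -1.58 to -1.20 for JAZ11 and -1.34 to -0.18 for JAZ12, and DMS in the biotin variation from -1.25 to -0.19 for AOS1. The difference ranged from -0.89 to 0.19 for AOS1, -0.89 to 0.83 for OPR1 and -0.71 to 1.28 for JAZ9, DMS over both from -0.39 to 0.055 for OPR1, and protocol from -0.11 to 0.41 for JAZ12. The log2 change of OPR7 in the biotin variation ran from 0.53 to 6.65 over these fits, the highest without replicate 2 of the untreated pair, which leaves a library with no count.

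The depth limits all of these values, with 1 count worth up to 20.03 CPM in the standard-primer and 21.5 CPM in the custom-primer readings.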
